A study of Danio rerio with 6 samples.

Results

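The 7 zebrafish genes described here encode CC chemokines: ccl35.1, ccl35.2, ccl34b.1, ccl34b.4, ccl34a.4, ccl38.6 and ccl19a.1. They were selected on detection in the same counts that are described below, with the genotype differences already known, so their levels and differences are a description of these libraries and not an independent test of the family. They make up 7 of the 33 CCL-named genes among the 31962 Ensembl genes counted. RNA came from macrophages sorted by flow cytometry from zebrafish (Danio rerio) larvae, as red cells of the mpeg1:mCherryF line, in which the promoter of the macrophage gene mpeg1 drives a red fluorescent protein. The larvae are described as 6 days old in the sample characteristics and as 5 days old in the protocol. The 3 wild type libraries are cxcr3.2+/+ and the 3 mutant libraries are cxcr3.2-/-. Both genotypes carry the reporter, and each library is a pool of 150 to 200 larvae.

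CC chemokines are small secreted proteins, named for a pair of adjacent cysteines, that attract leukocytes through G protein-coupled receptors of the CCR family. Macrophages both secrete and sense them. Many zebrafish CCL genes lie in local arrays that arose by duplication in fish, and most have no single mammalian counterpart. The mutated gene, cxcr3.2, encodes a receptor of the related CXC class, and the comparison asks which chemokine transcripts of unchallenged macrophages differ when it is mutated.

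Total counts ran from 6239470 to 9607009 per library, and 16499 genes had enough counts to be tested. Levels are CPM after TMM scaling, which corrects for library composition, with the values of single libraries given in the order of replicates 1, 2 and 3. Each fold change is mutant over wild type from edgeR's quasi-likelihood test with Benjamini-Hochberg adjustment over all tested genes. Of all tested genes, 0.885% were called lower and 0.309% higher in the mutant at an adjusted p of 0.05, that is 146 and 51 genes; scaled by library totals alone, the counts were 117 and 217. Genes whose 3 mutant libraries lay wholly below the 3 wild type libraries made up 10.4% of tested genes, and wholly above 10.2%. The transcript of cxcr3.2 itself was present in both genotypes, at 155 to 190 CPM in the wild type and 154 to 204 CPM in the mutant, and a gene count does not show the mutation. Wild type replicate 2 stood apart by its share of heat shock reads and mutant replicate 2 by its muscle markers, and the chemokine values without them are given with the heat shock shares. A second test, DESeq2, called 4.64% lower and 4.59% higher among the 10084 genes to which it gave an adjusted p.

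All 7 members were tested. In the mutant, 2 fell (ccl35.1 and ccl35.2), 0 rose and 5 did not pass, beside 0.885% lower and 0.309% higher of all tested genes. DESeq2 called 3 members lower, adding ccl38.6, and 1 member higher, ccl34b.1. Its shares over the genes to which it gave an adjusted p were 4.64% lower and 4.59% higher. At an unadjusted p of 0.05, edgeR had 4 members lower and 1 higher, beside 7.17% lower and 7.04% higher of all tested genes. The mutant and wild type libraries did not overlap for 6 of the 7, 4 lower and 2 higher. Over all tested genes the shares without overlap were 10.4% lower and 10.2% higher. The median log2 fold change was −1.29 over the members and −0.03 over all tested genes. These counts include ccl34b.4, which reached the count minimum in mutant libraries only and so had to differ between the genotypes to be tested.

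The ccl35 pair supplied both called members, and the pair fell together. Wild type replicates 1, 2 and 3 measured 1467, 1432 and 1340 CPM of ccl35.1 (ENSDARG00000103466), and mutant replicates 1, 2 and 3 measured 677, 529 and 522 CPM. Every mutant library was thus far below every wild type library, and the spread within a genotype was small beside the gap. The means were 1413 ± 65.7 CPM and 576 ± 87.4 CPM (SD, n = 3 each), a 2.45-fold difference (log2 fold change −1.29 with an SE of 0.13, adjusted p = 0.00387). ccl35.1 was called under all 13 alternative settings, with adjusted p between 6.49e-15 and 0.0347. The size of the difference depended on scaling. With library totals alone the log2 fold change was −1.03 (adjusted p = 0.0138).

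The companion gene ccl35.2 (ENSDARG00000070378) showed the same picture. Its levels were 454, 452 and 416 CPM in the wild type libraries against 215, 163 and 141 CPM in the mutant libraries. The genotypes again did not overlap. The means were 441 ± 21.3 CPM and 173 ± 37.7 CPM (SD, n = 3 each), a 2.55-fold difference (log2 fold change −1.35 with an SE of 0.17, adjusted p = 0.00908). Leaving out wild type replicate 3 gave an adjusted p of 0.0504 and leaving out mutant replicate 2 one of 0.0658, with log2 fold changes of −1.38 and −1.30. With scaling by library totals alone the log2 fold change of ccl35.2 was −1.08 (adjusted p = 0.0256).

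**Figure D1:**
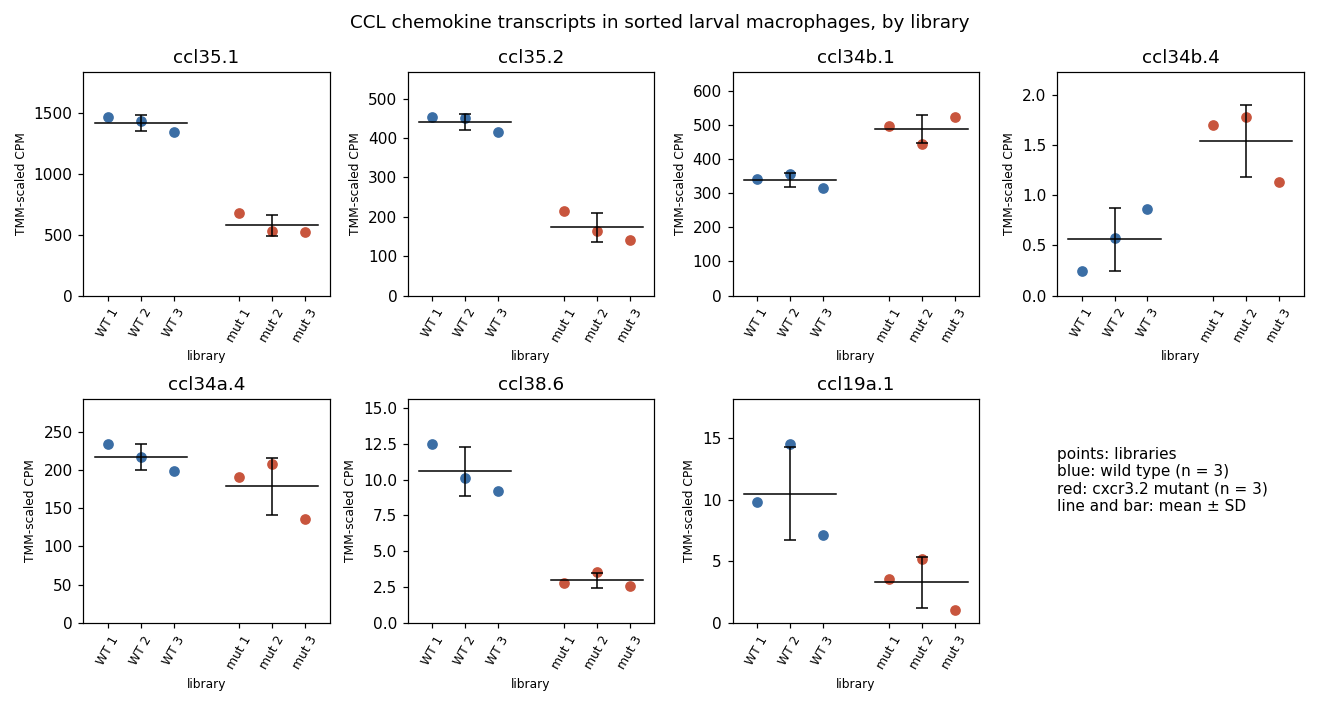
TMM-scaled CPM of the 7 CCL genes (vertical axes, linear from 0, each gene on its own scale) in each of the 6 libraries (horizontal axes); points are libraries, blue for wild type and red for mutant, and lines with bars are mean ± SD over 3 libraries. The genotypes overlap for ccl34a.4 alone; ccl34b.1 and ccl34b.4 are higher and the other 4 lower in the mutant libraries.

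Reads of ccl35.1 and ccl35.2 kept nearly the same proportion in both genotypes. Within each library there were 3.23, 3.17 and 3.22 reads of ccl35.1 for each read of ccl35.2 in the wild type libraries against 3.15, 3.23 and 3.71 in the mutant libraries. Only mutant replicate 3 stood apart. How the authors' counting treated reads that match both copies is not stated in the sources used here, so the separate values of the copies are uncertain, and whether shared reads bear on the constant proportion was not tested. The sum of both genes was 1853 ± 86.7 CPM in wild type against 749 ± 124 CPM in mutant libraries, a ratio of 2.47. The RefSeq gene table of the GRCz12tu assembly was used here for gene order and overlaps alone. In it, ccl35.1 follows ccl39.2 at the end of a run of ccl33 and ccl39 genes, whereas ccl35.2 has no CCL neighbour.

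Ratios within a library do not depend on scaling, and they were compared for the CCL genes with many reads. Each read of ccl33.3, the CCL gene outside the 7 with the most reads, was matched by 3.39, 3.84 and 3.62 reads of ccl35.1 in wild type replicates 1 to 3. In mutant replicates 1 to 3 it was matched by 1.67, 1.48 and 1.44 reads. For ccl34b.1 the same ratio went the other way, from 0.789, 0.956 and 0.851 in wild type to 1.22, 1.24 and 1.45 in mutant replicates. The ratio of ccl34b.1 to ccl35.1 combined both, at 0.239 ± 0.00855 in wild type and 0.859 ± 0.136 in mutant libraries (SD, n = 3 each). These pairs were chosen after their values were seen and were given no test.

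**Figure D2:**
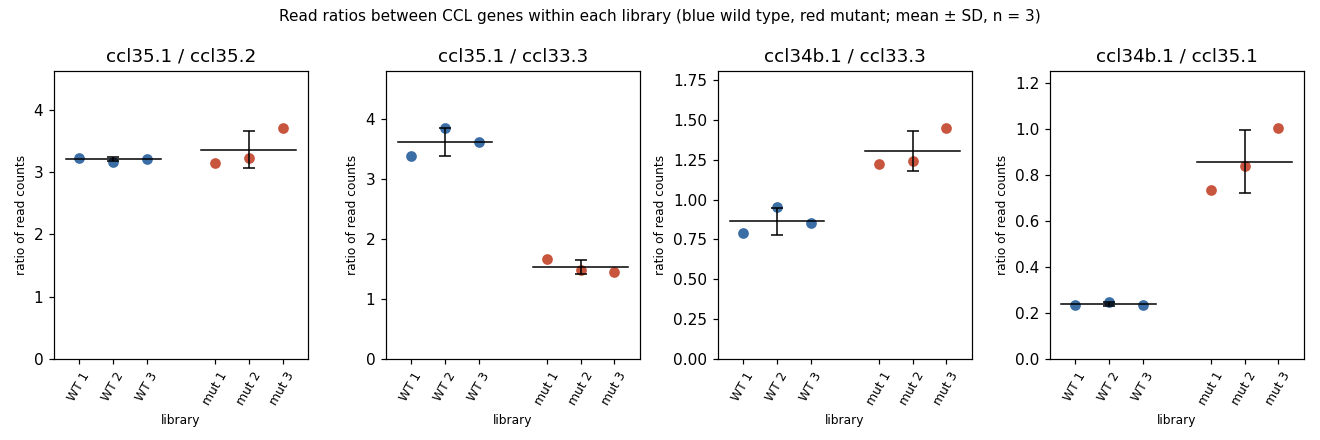
Ratio of read counts between pairs of CCL genes (vertical axes, linear from 0) within each library (horizontal axes), with mean ± SD over 3 libraries; blue is wild type and red mutant. The ratio of ccl35.1 to ccl35.2 lies between 3.15 and 3.71 throughout, while the other 3 ratios do not overlap between the genotypes.

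Among the ccl34b genes, the members ccl34b.1 and ccl34b.4 were higher in every mutant library than in any wild type library, and neither passed edgeR's test. For ccl34b.4 this adds nothing to ccl34b.1, since it reached the count minimum in mutant libraries only and had to differ to be tested. In zebrafish, ccl34b.1 is known as a marker of a subset of microglia, the macrophages of the brain. ccl34b.1 (ENSDARG00000093608) stood at 341, 356 and 315 CPM in the wild type libraries against 497, 444 and 524 CPM in the mutant libraries. The means were 338 ± 20.7 CPM and 488 ± 40.8 CPM (SD, n = 3 each), a log2 fold change of 0.53 (SE 0.12, 95% interval 0.25 to 0.82, adjusted p = 0.0904). Of 13 alternatives, 2 called it: DESeq2 (adjusted p = 0.00168) and scaling by library totals (adjusted p = 0.0259). Over the 13 its log2 fold change ranged from 0.48 to 0.80 and its adjusted p from 0.00168 to 0.264. In the RefSeq table ccl34b.1 overlaps a further coding gene, and whether this bears on its reads was not tested.

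ccl34b.4 (ENSDARG00000094002), which lies near ccl34b.1 in the RefSeq gene order, was barely detected. It had 2, 4 and 5 reads in the wild type libraries against 17, 13 and 12 reads in the mutant libraries, or 0.562 ± 0.312 CPM and 1.54 ± 0.354 CPM (SD, n = 3 each). The log2 fold change was 1.46 (SE 0.77, 95% interval −0.30 to 3.21, adjusted p = 0.457). It had the fewest reads of the 7, and DESeq2 gave it no adjusted p. Of CCL genes outside them at like levels, ccl19b had 0 to 18 reads, ccl20b 0 to 14 and ccl34b.9 0 to 8, and none of these 3 passed the count minimum. The further tested gene of the group, ccl34b.8, had 0 to 23 reads and groups that overlapped.

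ccl34a.4 (ENSDARG00000090873) was the member whose genotypes overlapped. Its levels were 234, 218 and 199 CPM in the wild type libraries against 191, 209 and 136 CPM in the mutant libraries. Mutant replicate 2 lay inside the wild type range and mutant replicate 3 was the lowest library. The means were 217 ± 17.5 CPM and 179 ± 37.8 CPM (SD, n = 3 each), with a log2 fold change of −0.28 (SE 0.18, 95% interval −0.69 to 0.13, adjusted p = 0.555). Its neighbour ccl34a.3 had the opposite sign, with 3.30 ± 1.01 CPM in wild type against 5.44 ± 1.0 CPM in mutant libraries (log2 fold change 0.72 with an SE of 0.48, adjusted p = 0.573). The ccl34a.3 libraries did not overlap, but only just, with 4.53 CPM in mutant replicate 2 against 4.47 CPM in wild type replicate 2.

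ccl38.6 (ENSDARG00000041923) had few reads and fewer still in mutant libraries. Its levels were 12.5, 10.1 and 9.19 CPM in the wild type libraries against 2.81, 3.57 and 2.55 CPM in the mutant libraries, from 26 to 103 reads per library. The genotypes did not overlap. The means were 10.6 ± 1.71 CPM and 2.97 ± 0.528 CPM (SD, n = 3 each), with a log2 fold change of −1.83 (SE 0.39, 95% interval −2.72 to −0.95, adjusted p = 0.0684). DESeq2 called it (adjusted p = 0.00194), as did edgeR when genes needed at least 30 reads in 3 libraries (adjusted p = 0.0472).

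The other ccl38 genes had the same sign as ccl38.6. In the RefSeq gene order ccl38.6, ccl38a.5 and ccl38a.4 follow each other, and each overlaps a further gene, ccl38a.3. No gene of that name was among the counted genes. Whether overlaps split reads of this array in the annotation that was counted was not tested. ccl38a.5 had 24.5, 7.49 and 21.1 CPM in the wild type libraries against 5.11, 6.31 and 5.58 CPM in the mutant libraries, so wild type replicate 2 sat close to the mutant libraries. It did not pass edgeR (log2 fold change −1.64 with an SE of 0.45, adjusted p = 0.138) but passed DESeq2 (adjusted p = 0.0142). The log2 fold changes of ccl38a.4 and ccl38.1 were −1.30 (SE 1.08, adjusted p = 0.684) and −1.13 (SE 0.49, adjusted p = 0.342).

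ccl19a.1 (ENSDARG00000058389) is a relative of mammalian CCL19, the ligand that guides dendritic cells and lymphocytes through CCR7. Its levels were 9.82, 14.6 and 7.11 CPM in the wild type libraries against 3.61, 5.21 and 1.04 CPM in the mutant libraries. The groups did not overlap, but both were widely spread. The log2 fold change was −1.69 (SE 0.60, 95% interval −3.04 to −0.33, adjusted p = 0.246), and no alternative called it. In the RefSeq table ccl19a.1 overlaps ccl19a.2, whose count was 0 to 11 reads. Whether they overlap in the annotation that was counted, and with what strand setting, is not stated, so their reads may not be separable. The receptor gene named CCR7 had 0 to 14 reads.

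Beyond the 7, the remaining 26 CCL genes included 13 that were tested. Of these, edgeR called 0, beside 0.885% lower and 0.309% higher of all tested genes. At an unadjusted p of 0.05, 4 were lower and 0 higher, beside the 7.17% and 7.04% of all tested genes. DESeq2 gave 9 of the 13 no adjusted p and called 1 lower, ccl38a.5. Its shares over the genes to which it gave an adjusted p were 4.64% lower and 4.59% higher. Of these 13 genes, 10 had a negative and 3 a positive sign. Mutant libraries lay wholly below the wild type for 5 and wholly above for 1, beside 10.4% and 10.2% of all tested genes. These counts include ccl39.6, which reached the count minimum in wild type libraries only and so had to differ between the genotypes to be tested. ccl33.3 measured 392 ± 35.3 CPM in wild type against 375 ± 27.1 CPM in mutant libraries (log2 fold change −0.06, 95% interval −0.35 to 0.23, adjusted p = 0.892), a sign that turned with scaling by library totals (0.20). ccl20a.3, a relative of the mammalian CCR6 ligand CCL20, varied widely among libraries, from 141 to 334 CPM in wild type against from 115 to 193 CPM in mutant libraries (log2 fold change −0.53 with an SE of 0.31, adjusted p = 0.51). ccl25b, whose mammalian relative is the CCR9 ligand CCL25, measured 24.5 ± 7.47 CPM and 18.6 ± 5.53 CPM (log2 fold change −0.40 with an SE of 0.33, adjusted p = 0.681).

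Genes of the ccl39 group were rare and differed in sign. ccl39.6 had 36, 65 and 21 reads in the wild type libraries against 2, 2 and 7 reads in the mutant libraries. Its log2 fold change of −3.86 (with an SE of 0.75 and adjusted p = 0.0509) was the largest of the tested CCL genes in size, and it reached the count minimum in wild type libraries only. It was called with scaling by library totals (adjusted p = 0.0476) and with no count filter (adjusted p = 0.0472), and its adjusted p ranged from 0.0472 to 0.231 over the alternatives that gave one. In the RefSeq table ccl39.6 overlaps further coding genes, and whether this bears on its reads was not tested. ccl39.7 measured 3.52, 7.78 and 5.20 CPM in wild type against 1.20, 1.37 and 0.945 CPM in mutant replicates (log2 fold change −2.22 with an SE of 0.57, adjusted p = 0.116). ccl39.5, singled out after its values were seen, had 0 reads in each wild type library and 3, 8 and 13 reads in mutant replicates 1 to 3, too few to be tested. The last 4 tested genes, ccl33.2, ccl36.1, ccl44 and ccl34b.8, had means under 3 CPM in both genotypes, with log2 fold changes from −0.87 to 0.61.

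**Figure D3:**
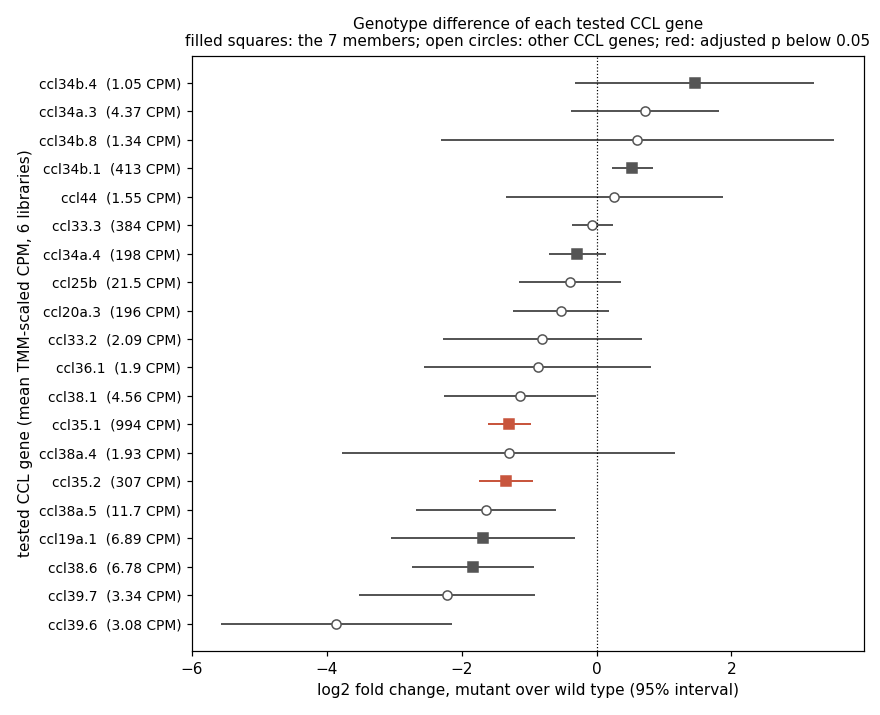
Log2 fold change of mutant over wild type (horizontal axis) with its 95% interval for the 20 tested CCL genes (vertical axis, with the mean TMM-scaled CPM over 6 libraries in parentheses); filled squares are the 7 members, open circles the other genes, and red marks an adjusted p under 0.05. The intervals are narrow for the well-counted genes ccl35.1, ccl35.2, ccl34b.1 and ccl33.3 and wide for genes of few reads, and ccl35.1 and ccl35.2 are the only red genes.

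The make-up of CC chemokine reads differed accordingly between the genotypes. Of all reads on CCL genes, ccl35.1 took 45.1 ± 1.48% in wild type and 28.6 ± 1.5% in mutant libraries (SD, n = 3 each). ccl34b.1 took 10.8 ± 0.714% and 24.5 ± 3.26%, so that in mutant replicate 3 it took 28.2% beside 28.1% for ccl35.1. The share of ccl33.3 was 12.5 ± 0.664% and 18.7 ± 0.684%. Shares are parts of one total, so a smaller ccl35 share enlarges the others without a change in their level. The level of ccl33.3 was 392 CPM in wild type against 375 CPM in mutant libraries. These are shares of reads, not of molecules, since transcript lengths were not used.

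Summed over all 33 CCL genes, the level was 3132 ± 112 CPM in wild type against 2006 ± 200 CPM in mutant libraries. Without the ccl35 pair the sums were 1279 ± 82.0 CPM and 1257 ± 76.2 CPM, a split made after the values were seen. This remainder is a net value of genes that differ in sign, and its closeness between the genotypes holds under TMM scaling. Scaling by library totals alone gives higher mutant levels, with a median log2 fold change of all genes of 0.24 instead of −0.03. The mean of ccl34b.1 was 338 CPM in wild type against 488 CPM in mutant libraries. For ccl20a.3 the means were 232 against 161 CPM, and for ccl34a.4 they were 217 against 179 CPM. As a share of all counts, with no scaling, CCL reads held 0.318%, 0.254% and 0.283% in the wild type libraries against 0.247%, 0.207% and 0.205% in the mutant libraries.

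**Figure D4:**
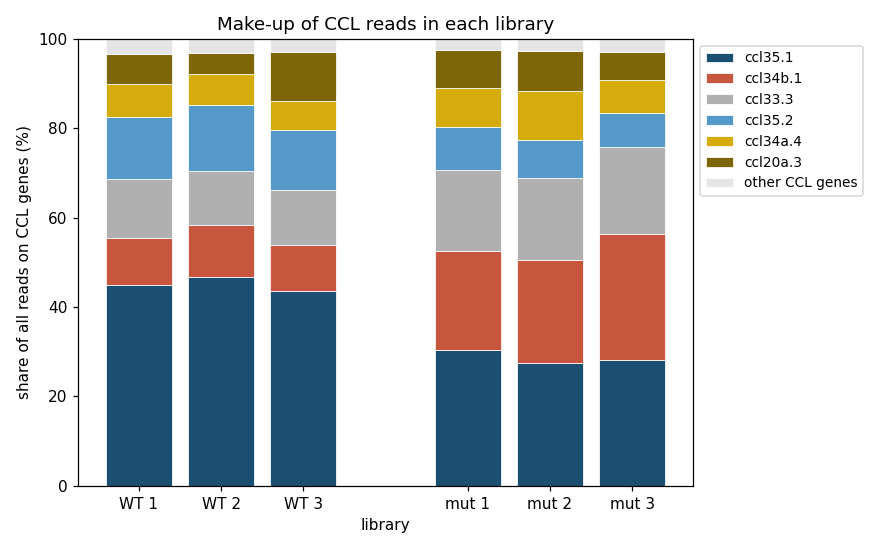
Share of all reads on CCL genes (vertical axis, %) taken by the 6 genes with the most reads and by the rest, for each library (horizontal axis). The ccl35.1 segment is larger in each wild type library (43.7% to 46.7%) than in each mutant library (27.4% to 30.3%), and the ccl34b.1 segment smaller (10.3% to 11.6% against 22.2% to 28.2%).

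None of the tested CC, XC and atypical chemokine receptor genes passed a test, at a background where few genes did. Of 20 such genes, 13 were tested, and edgeR called 0 and gave 0 an unadjusted p under 0.05. DESeq2 gave 4 of the 13 no adjusted p and called 0. Its shares over the genes to which it gave an adjusted p were 4.64% lower and 4.59% higher. The groups overlapped for all 13, and their median log2 fold change was −0.25. Over all tested genes, 7.17% were lower and 7.04% higher at an unadjusted p of 0.05. The shares of all tested genes without overlap were 10.4% lower and 10.2% higher. With 0.885% and 0.309% of all tested genes called, 0 of 13 is near the background and does not show that the receptors were alike in the genotypes. The gene named CCR9 (ENSDARG00000055186), whose mammalian counterpart binds CCL25, measured 485 ± 47.7 CPM in wild type against 408 ± 85.8 CPM in mutant libraries (log2 fold change −0.25, 95% interval −0.65 to 0.14, adjusted p = 0.601), and its sign turned with scaling by library totals. The receptor gene ccr12b.2 measured 190 ± 27.1 CPM and 248 ± 40.1 CPM (log2 fold change 0.38, 95% interval −0.01 to 0.77, adjusted p = 0.371). Its relative ccr12b.1 had a log2 fold change of 0.23 (with an SE of 0.26 and adjusted p = 0.776). The scavenging receptor gene ACKR3 (ENSDARG00000058179), which binds CXC ligands in mammals, measured 82.1 ± 5.65 CPM and 51.2 ± 25.1 CPM (log2 fold change −0.68 with an SE of 0.32, adjusted p = 0.389).

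CCL genes, ccl35.2 among them, were left out of a search for the genes most like ccl35.1 across the 6 libraries. By Pearson r of log2 CPM, the highest were her4.5 (r = 0.999), TFEC (r = 0.998), CLIC2 (r = 0.997), her4.4 (r = 0.995) and DIP2A (r = 0.995). TFEC encodes a transcription factor of the MiT family, and the her4 genes encode transcriptional repressors that respond to Notch. TFEC stood at 471, 463 and 417 CPM in the wild type libraries against 272, 236 and 228 CPM in the mutant libraries, the same order of libraries within each genotype as ccl35.1. her4.5 measured 35.8, 37.3 and 31.0 CPM and 7.42, 4.66 and 4.63 CPM. An r of at least 0.95 was reached by 107 of 12019 eligible genes. The points fall into the 2 genotypes, so this likeness is a description of how the genes differ between them. The her4 genes belong to a family of close copies, whose reads may be shared.

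Other features of the libraries moved with genotype too. Heat shock genes (38 genes with symbols beginning hsp) held 11.6%, 23.0% and 14.0% of counts in the wild type libraries against 3.73%, 3.71% and 4.09% in the mutant libraries. With these genes removed before scaling, the log2 fold changes were −1.29 for ccl35.1 (adjusted p = 0.00424), −1.34 for ccl35.2 (adjusted p = 0.00964) and 0.54 for ccl34b.1 (adjusted p = 0.0782). Without wild type replicate 2, the library richest in heat shock reads, ccl35.1 had a log2 fold change of −1.28 (adjusted p = 0.0151), ccl35.2 one of −1.32 (adjusted p = 0.0479) and ccl34b.1 one of 0.58 (adjusted p = 0.189). Without mutant replicate 2 the values were −1.23 for ccl35.1 (adjusted p = 0.0347), −1.30 for ccl35.2 (adjusted p = 0.0658) and 0.60 for ccl34b.1 (adjusted p = 0.162).

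Markers of macrophages and of other cells were read in the same libraries. The 10 matched macrophage and microglia genes, led by apoeb, summed to 4053 to 5279 CPM in wild type against 7314 to 7893 CPM in mutant libraries, and 1 of them, apoeb, was called (higher). Of these 10 genes, apoeb held 2075 to 2858 CPM and 4692 to 5551 CPM. A positive sign was also seen for slc7a7 (log2 fold change 0.55), lcp1 (0.46), havcr1 (0.43) and marco (0.28), none of them called. A negative sign was seen for csf1ra, p2ry12 and the 3 genes named MPEG1, the name of the gene whose promoter drives the reporter. The MPEG1 gene with the highest level, ENSDARG00000055290, had 295 to 400 CPM in wild type against 268 to 348 CPM in mutant libraries (log2 fold change −0.16, adjusted p = 0.752). The MPEG1 gene ENSDARG00000043093 had 103 to 135 CPM in wild type against 27.7 to 64.7 CPM in mutant libraries (log2 fold change −1.26, adjusted p = 0.0904). ENSDARG00000078569 had a log2 fold change of −0.47 (adjusted p = 0.796). The 11 lymphocyte and natural killer cell genes summed to 390 to 413 CPM against 206 to 317 CPM, of which tagapa alone held 351 to 390 CPM and 188 to 273 CPM, while cd4-1, cd8a and nkl.2 stood under 1 CPM in every library. Of the same list, rag1 ranged from 2.43 to 21.3 CPM and il7r from 8.60 to 16.0 CPM over the 6 libraries, and lck reached 9.72 CPM in mutant replicate 1 against 0 to 1.56 CPM elsewhere. The 7 epidermal genes summed to 3821 to 4523 CPM against 3220 to 3376 CPM, and krt4 alone stood at 1189 CPM or more in every sorted pool. The sum of the 4 matched neutrophil genes overlapped between the genotypes, with a range of 302 to 1215 CPM, and was highest in mutant replicate 2. There lyz (668 CPM) and npsn (234 CPM) were highest, while mmp13a and cxcr1 were highest in mutant replicate 1. The 3 muscle genes were highest in mutant replicate 2 too (summing to 532 CPM against 21.6 to 43.4 CPM elsewhere). The 4 matched endothelial genes summed to 26.1 to 45.8 CPM over all libraries. Of the 22 tested lymphocyte, epidermal, neutrophil, muscle and endothelial markers, edgeR called 0 (6 had an unadjusted p under 0.05) and DESeq2 called 2, tagapa and cldni. Over all tested genes, edgeR called 0.885% lower and 0.309% higher. At an unadjusted p of 0.05 it had 7.17% lower and 7.04% higher. DESeq2 called 4.64% lower and 4.59% higher of the genes to which it gave an adjusted p. The part of the marker genes' cells in the chemokine differences was not tested. In bulk RNA of sorted pools, fewer cells that express a chemokine and less of its RNA per cell cannot be told apart.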

How the data were processed

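Gene expression was measured in 6 libraries, 3 per genotype, grouped by sample title. The authors deposited raw read counts per Ensembl gene, with no normalization. Per the labels' protocols, reads were aligned to GRCz10 after low-input cDNA amplification, with Bowtie and TopHat listed in the submitters' processing notes. Which tool counted them, and with what strand and multimapping settings, is not given in the sources used.

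Symbols came from a table naming 26121 of 31962 IDs; of 34 CCL-named IDs in it, 33 matched. The RefSeq table (GRCz12tu) served for gene order and overlaps only, and is of another assembly than the one the reads were aligned to. In it ccl20a.3, ccl36.1 and ccl44 also overlap another coding gene, and whether this bears on their reads was not tested. No sequence was used.

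The genotype comparison used edgeR 4.0.16 under R 4.3.3 (filterByExpr with minimum count 10 and total 15, TMM, quasi-likelihood test of genotype, two-sided, Benjamini-Hochberg over all tested genes, threshold 0.05). SEs were derived from the quasi-likelihood F. DESeq2 1.42.0 was an alternative, beside other scalings and count filters, a replicate block and leaving out each library. Removing heat shock genes was added after seeing the data. The test was tested on simulated data. The common biological coefficient of variation was 0.441. Replicates of a genotype differed by more than sampling noise in every pair (lowest chi-square 18.3 per gene).

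Members and lists were chosen with earlier results of these data known. Named are the 7 members, every other tested CCL gene and the 3 CCL genes with the highest mean below the filter. The 4 receptor genes with the highest mean are named too. So are the 5 genes most like ccl35.1 (CCL genes left out, mean log2 CPM of at least 1, no clone name). CCR7, ccl39.5 and ccl19a.2 were named after their values were seen.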

Additional observations from a re-analysis of the deposited data

How the results depend on the processing

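The count of lower CCL genes (2) became 4 with DESeq2, 3 with library totals (adding ccl39.6), with no count filter (ccl39.6) and with at least 30 reads in 3 libraries (ccl38.6), and 1 to 2 when 1 library was left out (1 without wild type replicate 3 or mutant replicate 2); higher CCL genes (0) became 1 with DESeq2 and 1 with scaling by library totals. Receptor counts stayed at 0 in every alternative. Over all genes, lower and higher calls (146 and 51) became 468 and 463 with DESeq2, 237 and 106 with at least 30 reads in 3 libraries, 84 and 13 with the replicate block, 43 to 98 and 3 to 11 with a library left out, and 217 higher with library totals, where the median log2 fold change of all genes was 0.24 instead of −0.03. Same-numbered libraries did not deviate together (correlations −0.03 to 0.0025), and the replicate block changed no CCL or receptor call. Of 303 gene values under alternatives, 289 kept direction and, where an adjusted p was given, side of the threshold. They include 10 CCL genes to which DESeq2 gave no adjusted p, counted on direction alone. Of the rest, 2 lost the call, 7 gained it and 5 turned sign: ccl33.3 with library totals (0.20) and over libraries left out (−0.12 to 0.023), CCR9 with library totals (0.0084), ccl34b.8 (−0.28 to 1.94) and ccl44 (−0.22 to 0.54) over libraries left out. The causes were not tested. Few reads limit ccl34b.4, with 2 to 17 per library and a 95% interval from −0.30 to 3.21.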
